A study of Mus musculus with 10 samples.

Results

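HOX genes code for homeodomain transcription factors that give cells of the embryo their position along the head-to-tail axis. The 39 HOX genes examined here are all protein-coding mouse genes whose symbol is Hox, then a, b, c or d, then a number, out of 28059 gene identifiers in the deposited files. The letter names 1 of 4 chromosomal clusters and the number names the paralog group, a set of sister genes that sit at the same place in different clusters. By the label given to the set they belong to the caudal hindbrain, and the counts below show which of them were read at all in these brains.

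Polyadenylated RNA was sequenced from mouse brains of the E18.5 embryonic stage, with the olfactory bulbs removed. Each of 5 genotypes has 2 libraries. The controls carry the label COP1 het control, and the groups compared with them are COP1 KO (here KO), COP1.cJun DKO (DKO, also without cJun), COP1.cJun.ETV1 TKO (TKO, without ETV1 too) and COP1.cJun.ETV1.ETV5 QKO (QKO, without ETV5 in addition). No group is wild type, and all 4 knockout groups lack COP1 by label, part of a ubiquitin ligase that marks cJun, ETV1 and ETV5 for destruction. The sources used here do not give the alleles, any Cre driver, the strain or the litters. They do not say whether a group's 2 libraries are separate animals, so p-values measure only the spread between these libraries. Library numbers follow accession order and pair nothing.

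In the hindbrain, HOX genes of low paralog number reach far forward, and those of higher number start progressively further back. Group 1 to 4 genes have their front borders at segments of the embryonic hindbrain called rhombomeres, and genes of group 5 and above are mostly genes of the lowest hindbrain and the spinal cord. Forebrain and midbrain are normally free of HOX expression. HOX proteins bind DNA together with TALE cofactors of the PBX and MEIS families, retinoic acid switches the early genes on, and Polycomb proteins keep the clusters silent where they are not used.

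Library totals ran from 31996944 to 54594523 counts, so that 3 counts, taken as the floor, stood for 0.055 to 0.0938 CPM, which is each count scaled to the library total, and this limit covers counting error only. Jun followed the labels, at 14.99 to 16.1 in control and KO and 1.44 to 2.94 in DKO, TKO and QKO. These values are nRPKM, the authors' RPKM with size factors applied. A count taken over a whole gene misses a deleted exon, so Cop1 (3.57 to 5.0 nRPKM over the libraries), Etv1 and Etv5 did not check their labels, and directions below rest on those labels. Xist, which coats the silenced X of female cells, reached 1840 CPM in control 1 and 1460 CPM in DKO 1, and it was at 0.925 to 1.94 CPM elsewhere. The other 3 groups had no such library. In bulk brain RNA, fewer cells of a type and less RNA per cell cannot be told apart.

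RefSeq held a start-site window (assembly GRCm38.p6, 250 bases before to 50 after the start) for 22 of the 39 genes. Among the 13 genes with enough reads to test, 7 had a window: Hoxa2, Hoxa3, Hoxa5, Hoxb4, Hoxc4, Hoxd3 and Hoxd4. The windows of Hoxa2 (chr6:52164782-52165081, minus strand) and Hoxa5 (chr6:52204538-52204837, minus strand) are shown because these genes of the Hoxa cluster had a smaller and a larger difference between KO and control. Capitals mark a match to the HOX-PBX letters given below, and a sequence without capitals had no match to any motif searched.
Hoxa2: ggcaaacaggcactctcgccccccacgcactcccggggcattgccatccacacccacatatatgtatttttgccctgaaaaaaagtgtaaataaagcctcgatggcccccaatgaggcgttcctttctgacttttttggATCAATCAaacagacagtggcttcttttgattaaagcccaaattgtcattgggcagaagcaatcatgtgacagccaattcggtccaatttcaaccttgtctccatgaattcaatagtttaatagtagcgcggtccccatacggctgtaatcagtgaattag
Hoxa5: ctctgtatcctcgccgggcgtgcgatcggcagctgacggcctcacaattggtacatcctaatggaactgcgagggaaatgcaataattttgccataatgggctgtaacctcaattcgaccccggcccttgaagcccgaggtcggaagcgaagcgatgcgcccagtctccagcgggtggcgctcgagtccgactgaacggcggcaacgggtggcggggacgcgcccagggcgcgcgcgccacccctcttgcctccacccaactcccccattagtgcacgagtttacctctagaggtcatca

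The Hoxa2 window was 45.7% G and C with 9 CpG pairs, and that of Hoxa5 was 61.7% with 29, beside medians of 52.7% and 7 over all 32851 windows of the same length. A joint HOX-PBX site (TGATNNAT, both strands) was found in 1 of the 7 windows, that of Hoxa2, where it begins 111 bases before the start, and in 8.85% of all windows. The proteins removed in this series bind an AP-1 or CRE site (cJun) or an ETS site (ETV1 and ETV5). An AP-1 site (TGANTCA) was in 0 of the 7 windows and 7.81% of all, a CRE (TGACGTCA) in 0 and 1.79%, and an ETS site (CCGGAA) in 0 and 14.9%. A TATA box (TATAAA) was in 1 of the 7, that of Hoxd4, and in 13.6% of all. None of these motifs contains another, and a window without a match says only that the letters are not in it.

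HOX genes resemble each other most in the homeobox, the part that codes for the DNA-binding domain, and a read from there could fit several genes. Over all 741 pairs of the 39 coding sequences (GENCODE M21), 0 pairs shared a run of 75 identical bases, the length of a read. The longest run was 52 bases, and among the 78 pairs of tested genes it was 47, with a median of 17.

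Whole transcripts were a different matter. Transcripts of Hoxd3 and Hoxd4 shared 314 stretches of 75 bases, and those of Hoxc5 and Hoxc10 shared 94, so the separate values of these genes are uncertain. The kit does not mark strand, and reads of a gene and of an antisense partner cannot be told apart. Of the noncoding genes of the clusters that have an identifier in the files, Hoxaas3 had 3 reads over the 10 libraries, Hoxa11os and Hoxd3os1 had 1 each, and Hotair had 0. The hairpins of Mir10a and Mir10b, which lie in the Hoxb and Hoxd clusters, had 0 reads, and libraries of polyadenylated RNA do not hold mature miRNAs.

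The 39 genes took 7611 reads over the 10 libraries. Reads fell off sharply along the clusters. The 5 genes of groups 2 and 3 held 4771 of them, the 7 genes of groups 4 and 5 held 2580, and the 12 genes of groups 6 to 9 held 130. The 12 genes of groups 10 to 13 held 32 reads. The Hoxb cluster gave 3078 reads, Hoxa 2476, Hoxd 1362 and Hoxc 695. Of the 39 genes, 7 had a count of 0 in all 10 libraries: Hoxa7, Hoxa9, Hoxc11, Hoxc12, Hoxd10, Hoxd11 and Hoxd12. Another 10 never exceeded 2 counts in a library, and 22 reached 3 counts in at least 1. With 0 reads a gene was below the floor in every library, which does not show that it was absent. Most reads thus came from genes of groups 2 to 5.

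**Figure D1:**
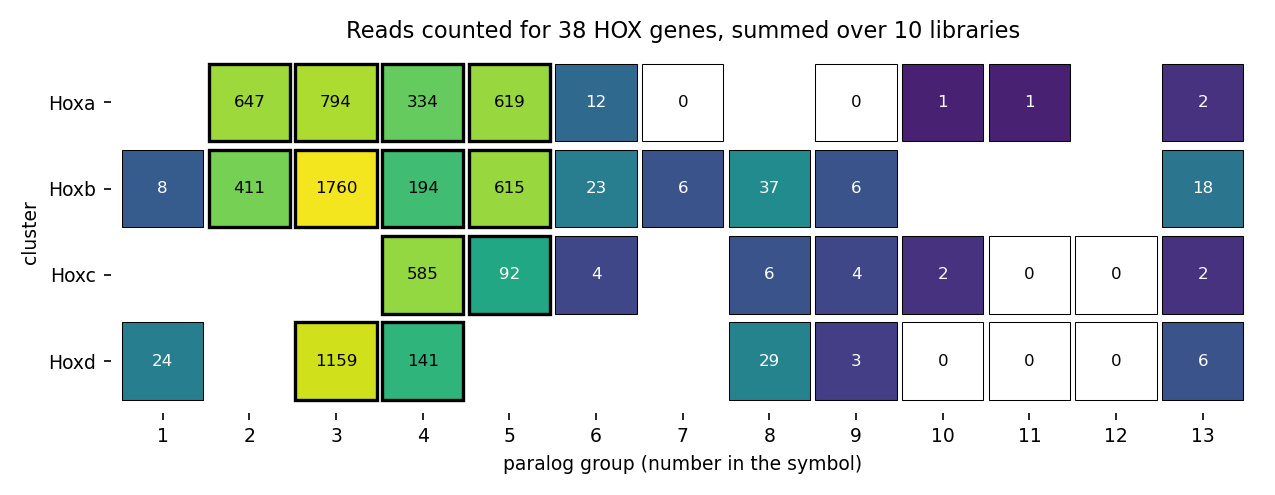
Reads counted for 38 of the 39 HOX genes, summed over the 10 libraries, with clusters in rows and paralog groups in columns. White boxes are genes with 0 reads and thick frames mark genes that passed the low-count filter. Reads concentrate in groups 2 to 5, with 1760 for Hoxb3.

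Per kilobase, Hoxb3 was the most abundant, with a mean of 1.06 nRPKM over the 10 libraries. Hoxd3 (0.905), Hoxa2 (0.861), Hoxa5 (0.727), Hoxb5 (0.720) and Hoxa3 (0.699) followed. The next were Hoxc4 at 0.665, Hoxb2 at 0.569 and Hoxa4 at 0.486, and then Hoxb4 at 0.170, Hoxd4 at 0.124 and Hoxc5 at 0.0750. The order turned between libraries: Hoxa5 and Hoxb5 were above Hoxb3 in control 2, and Hoxd3 and Hoxb5 were above it in QKO 1. Hoxa2 was above Hoxb3 in KO 1, DKO 1, DKO 2 and QKO 2, and Hoxb2 was above it in KO 2. Summed over all 39 genes, HOX reads made up 35.0 and 47.2 CPM in the controls, 4.84 and 2.22 in KO, 5.17 and 10.3 in DKO, 21.8 and 17.2 in TKO, and 36.0 and 6.15 in QKO. Both KO and both DKO libraries were below every control and TKO library. The QKO libraries lay apart, QKO 1 between the controls and QKO 2 between the DKO libraries.

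Group 2 genes reach furthest forward in the hindbrain. Hoxa2, which gives the second rhombomere and the second branchial arch their identity, stood at 1.53 and 1.66 nRPKM in controls, 0.369 and 0.124 in KO, 0.501 and 0.754 in DKO, 1.05 and 0.683 in TKO, and 1.35 and 0.579 in QKO. All 8 knockout libraries were below both controls, and the KO libraries were the lowest. Hoxb2, which acts in rhombomeres just behind, was at 1.02 and 1.15 in controls, 0.185 and 0.142 in KO, 0.240 and 0.389 in DKO, 0.702 and 0.786 in TKO, and 0.805 and 0.271 in QKO. It again placed KO lowest, with TKO and QKO 1 nearest the controls.

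Group 3 genes act in the fifth and sixth rhombomeres. Hoxb3 was at 2.16 and 2.19 nRPKM in controls, 0.311 and 0.125 in KO, 0.379 and 0.720 in DKO, 1.41 and 1.07 in TKO, and 1.85 and 0.422 in QKO. Hoxd3 was at 1.83 and 1.89 in controls, 0.208 and 0.120 in KO, 0.128 and 0.566 in DKO, 1.11 and 0.902 in TKO, and 2.02 and 0.282 in QKO. Hoxd3 in QKO 1 was above both controls, and that in QKO 2 was less than in either TKO library. Hoxa3, which also patterns the pharyngeal organs, was at 1.40 and 1.83 in controls, 0.185 and 0.119 in KO, 0.154 and 0.442 in DKO, 0.944 and 0.567 in TKO, and 1.09 and 0.261 in QKO. In all 3 genes the KO and DKO libraries lay below the TKO libraries.

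Group 4 genes begin at the border of the sixth and seventh rhombomeres. Hoxa4 was at 0.989 and 1.49 nRPKM in controls, 0.0439 and 0.0303 in KO, 0.0641 and 0.113 in DKO, 0.676 and 0.245 in TKO, and 1.08 and 0.130 in QKO. Hoxc4 was at 1.23 and 1.69 in controls, 0.152 and 0.0351 in KO, 0.178 and 0.479 in DKO, 0.645 and 0.390 in TKO, and 1.77 and 0.0670 in QKO. Hoxc4 in QKO 1 was above both controls, whereas in TKO 2 it was below DKO 2. Hoxb4 was at 44 and 54 counts in controls, 4 and 1 in KO, 2 and 3 in DKO, 21 and 17 in TKO, and 43 and 5 in QKO. Hoxd4 was at 22 and 34, 6 and 1, 2 and 4, 27 and 15, and 28 and 2 counts in the same order. These 2 genes rest on few reads, and their KO and DKO libraries were close to the floor of 3 counts. Hoxa4 was also near it there, with 4 and 2 counts in KO and 5 and 6 in DKO.

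Group 5 genes, which start in the lowest hindbrain and run into the cervical cord, spanned a wide range. Hoxa5, also a gene of the phrenic motor column, was at 1.39 and 2.92 nRPKM in controls, 0.143 and 0 in KO, 0.104 and 0.0767 in DKO, 0.681 and 0.683 in TKO, and 1.16 and 0.118 in QKO. Hoxb5 was at 1.30 and 2.72 in controls, 0.0973 and 0.0245 in KO, 0.0930 and 0.0760 in DKO, 0.485 and 0.451 in TKO, and 1.94 and 0.0117 in QKO. Hoxb5 in QKO 2 rested on 1 read, against 154 in QKO 1. In KO and DKO, Hoxa5 rested on 16, 0, 10 and 5 reads and Hoxb5 on 11, 2, 9 and 5. Hoxc5 had 11 and 46 counts in controls, 0 in both KO libraries, 3 and 2 in DKO, 8 in both TKO libraries, and 12 and 2 in QKO. Control 2 was above control 1 in each of these 3 genes.

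**Figure D2:**
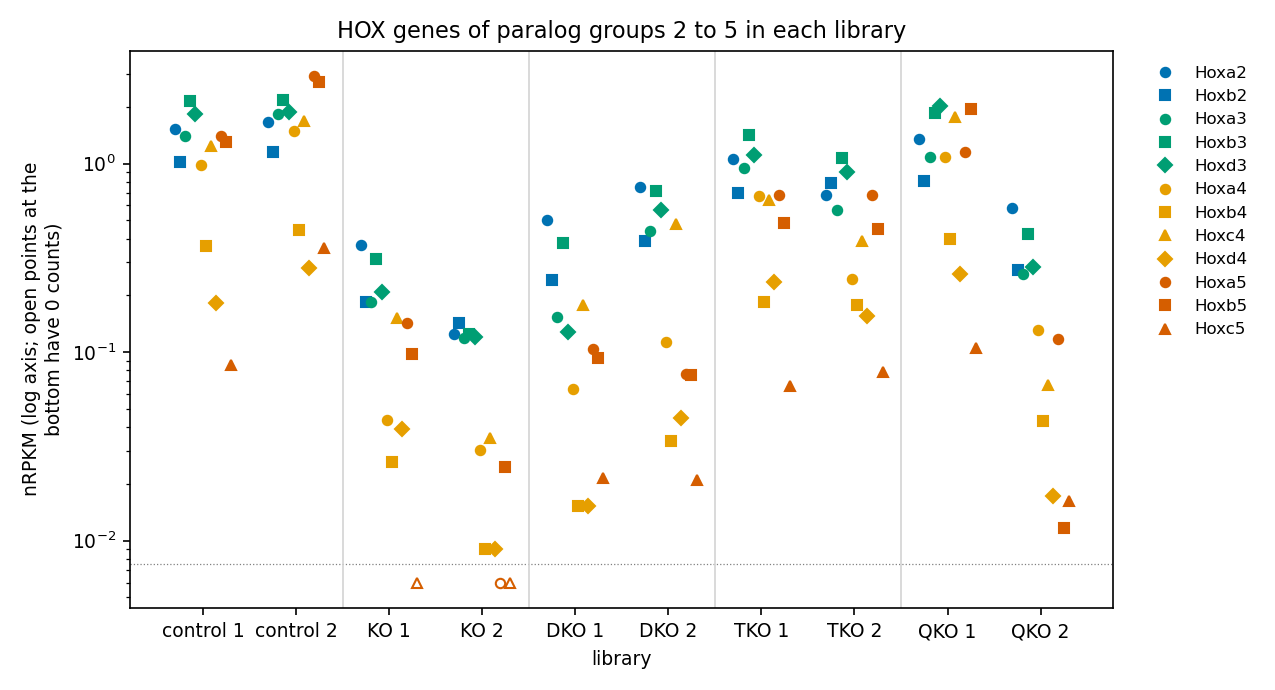
nRPKM (log axis) of the 12 tested HOX genes of paralog groups 2 to 5 in each of the 10 libraries, coloured by paralog group, with open points at the bottom for 0 counts. The genes move together. Most orange and red points of groups 4 and 5 drop further than the blue and green ones in KO, DKO and QKO 2. An example is Hoxb5 at 0.0117 in QKO 2. By log2 fold change against control, Hoxd4 in KO (-3.08) and Hoxc4 in DKO (-2.23) are exceptions.

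KO vs control asked how the HOX genes stood in brains without COP1. Of the 39 genes, 13 passed the low-count filter, which many reads in the controls alone can bring about, so counts over these 13 describe them and no more. Among them 6 fell in KO: Hoxa2, Hoxb2, Hoxa3, Hoxb3, Hoxa4 and Hoxa5. None of the 13 rose. Over all 18671 genes tested, 0.23% were called lower and 0.503% higher. Hoxb2 was 6.43-fold lower (log2 fold change -2.68 ± 0.44 SE, n = 2 per group, edgeR quasi-likelihood test, Benjamini-Hochberg adjusted p = 0.0195) and Hoxa2 6.05-fold lower (-2.60 ± 0.45, edgeR adjusted p = 0.03). Hoxa3 was 10.2-fold lower (-3.35 ± 0.60) and Hoxb3 9.47-fold lower (-3.24 ± 0.58). Hoxa4 was 30.9-fold lower (-4.95 ± 0.94) and Hoxa5 25.8-fold lower (-4.69 ± 0.89). Both folds rest on few KO reads, 4 and 2 for Hoxa4 and 16 and 0 for Hoxa5. The other 7 did not pass, although 12 of the 13 had an unadjusted p under 0.05, beside 10.4% of all genes. They included Hoxd3 (-3.44 ± 0.77, edgeR adjusted p = 0.0869), Hoxb4 (-4.34 ± 0.87), Hoxc4 (-3.82 ± 1.03), Hoxd4 (-3.08 ± 0.92), Hoxb5 (-4.89 ± 1.21) and Hoxc5. For Hoxc5, with 0 reads in KO, 57 control reads against a floor of 3 counts over both KO libraries made it at least 20.6-fold lower.

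Both KO libraries were below both controls in all 13 genes, as were 22.8% of all genes tested. The median log2 fold change of the 13 was -3.44, and that of all genes 0.0072. The calls rested on every library: a fit without control 1 left 1 HOX gene called, Hoxc5, and fits without control 2, KO 1 or KO 2 left 0, while the median stayed between -4.51 and -3.15. With DESeq2 7 HOX genes were lower: Hoxb4 and Hoxd3 were gained and Hoxa5 lost its call (DESeq2 adjusted p = 0.0582, beside 0.0425 in edgeR). In a fit of KO and control alone 12 of the 12 tested were lower. Over all genes, in either direction, DESeq2 called 240 and the fit of KO and control alone 691, against 137 in the main fit. Xist differed between the groups. With Xist as a covariate 3 HOX genes were called and the median was -3.78. Over all genes, in either direction, that fit called 60, against 137 in the main fit. Without control 1 and DKO 1, which leaves 1 library in each of these groups, the median was -3.54. Of the 6 genes named as fallen, Hoxb2 and Hoxa3 kept their call with the covariate, and only Hoxa3 did without those libraries.

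In DKO vs control no HOX gene passed. edgeR called 0 of the 13 HOX genes, against 12 at an unadjusted p under 0.05 and 3 lower by DESeq2. Among all genes 0.123% were called lower and 8.14% had such a p. The median was -2.53, and both DKO libraries were below both controls in 13 genes, as were 19.4% of all genes. Hoxa5 was 22.8-fold lower (-4.51 ± 0.91, edgeR adjusted p = 0.0791), Hoxd3 5.76-fold (-2.53 ± 0.73), Hoxb3 4.06-fold (-2.02 ± 0.54) and Hoxa2 2.59-fold (-1.37 ± 0.41). Neither library decided the direction, as the median was -1.86 without DKO 1 and -3.37 without DKO 2. A fit of DKO and control alone called 7 of 12 lower. Over all genes, in either direction, that fit called 93 and DESeq2 137, against 79 in the main fit.

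In TKO vs control the values were closer to control. edgeR and DESeq2 called 0 HOX genes, with 2 at an unadjusted p under 0.05. Among all genes 0.0428% were called lower and 10.3% had such a p. The median was -1.07. Hoxa5 was at -1.65 ± 0.67, Hoxa2 at -0.86 ± 0.40, Hoxd3 at -0.87 ± 0.63 and Hoxb3 at -0.80 ± 0.49 (edgeR adjusted p = 0.599). In 11 of the 13 genes both TKO libraries were below both controls, against 23% of all genes. A fit of TKO and control alone called 6 of 13 lower. That fit called 511 of all genes in either direction, against 28 in the main fit.

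QKO vs control depended on which QKO library was used. With both, edgeR and DESeq2 called 0 HOX genes, 4 had an unadjusted p under 0.05, and the median was -0.94, beside 0.102% of all genes called lower and 6.89% with such a p. Hoxa5 was at -1.77 ± 0.67, Hoxb3 at -0.94 ± 0.49 (edgeR adjusted p = 0.779), Hoxa2 at -0.73 ± 0.39 and Hoxd3 at -0.70 ± 0.62. Without QKO 1, 5 HOX genes were called lower and the median was -3.20. Without QKO 2, 0 were called and the median was -0.19, and Hoxd3 was then at 0.13. Both QKO libraries were below both controls in 5 of the 13 genes, as were 18.1% of all genes.

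The stepwise comparisons asked what each added deletion changed, and edgeR and DESeq2 called 0 HOX genes in each of them. In DKO vs KO the median was 0.86, with 1 gene at an unadjusted p under 0.05, and both DKO libraries were above both KO libraries in 6 of the 13, beside 22% of all genes. That median was 1.50 without KO 1 and also 1.50 without DKO 1, and it was 0.49 without DKO 2. In TKO vs DKO the median was 1.66, a 3.15-fold difference, with 7 genes at an unadjusted p under 0.05. Both TKO libraries were above both DKO libraries in 11 of the 13 genes, against 21.8% of all genes. The value was 1.01 without DKO 1 and 2.30 without DKO 2, and it was 1.17 with Xist as a covariate. In QKO vs TKO the median was -0.12, with 1 gene at an unadjusted p under 0.05 and 1 gene in which both QKO libraries were below both TKO libraries, beside 15.1% of all genes. It moved to -2.04 without QKO 1 and 0.62 without QKO 2. edgeR called 0.198% of all genes higher in DKO vs KO, 0.0214% higher in TKO vs DKO and 0.171% lower in QKO vs TKO. An unadjusted p under 0.05 was found for 13.8%, 11.9% and 5.78% of all genes in these comparisons.

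The size of the difference from control grew with the paralog number. In KO vs control the median log2 fold change was -2.64 for the 2 genes of group 2, -3.35 for the 3 of group 3 and -4.08 for the 4 of group 4. For the 3 of group 5 it was -4.69 with Hoxc5 at its bound. DKO vs control gave -1.60, -2.52, -3.43 and -4.51 for the same groups. TKO vs control gave -0.70, -0.87, -1.27 and -1.65, and QKO vs control -0.88, -0.94, -0.83 and -1.77, so that QKO broke the order at group 4. These 4 comparisons share the control libraries, and the trend over groups was not tested.

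**Figure D3:**
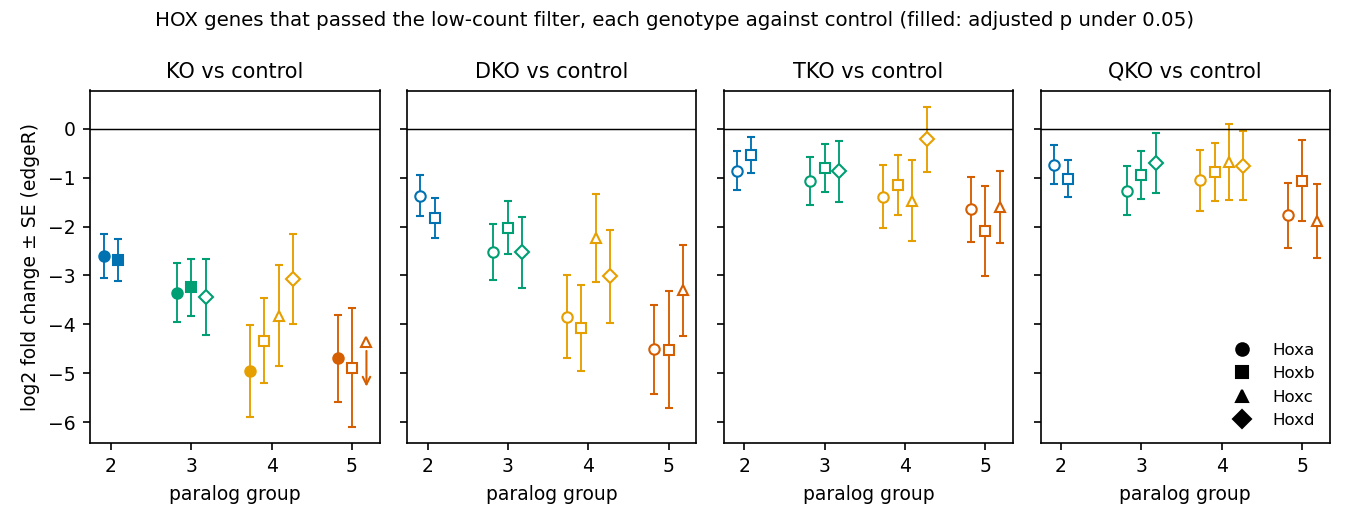
log2 fold change ± SE from edgeR for 12 tested HOX genes of paralog groups 2 to 5 in each genotype against control. Filled symbols passed an adjusted p of 0.05, the arrow marks Hoxc5 in KO at its bound of -4.36, and in KO and DKO the group medians go lower from group 2 to group 5, while single genes such as Hoxd4 in KO (-3.08) break that order.

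The balance between groups could also be read within each library, where no control enters. Of the reads in groups 2 to 5, the share in groups 4 and 5 was 33.6% (95% exact interval 31.2 to 36.0) in control 1 and 45.4% (43.2 to 47.7) in control 2. It was 23.9% (18.7 to 29.7) in KO 1 and 11.8% (5.6 to 21.3) in KO 2. The DKO libraries had 22.0% (16.7 to 28.0) and 18.53% (14.4 to 23.3), the TKO libraries 29.5% (26.5 to 32.6) and 29.4% (25.6 to 33.4), and the QKO libraries 40.5% (37.8 to 43.2) and 14.8% (10.5 to 19.9). The 5 libraries with the fewest HOX reads as CPM, KO 1, KO 2, DKO 1, DKO 2 and QKO 2, had the 5 lowest shares. These intervals cover counting error only.

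Libraries of 1 genotype differed by paralog group too. QKO 1 exceeded QKO 2 by 2.57-fold in group 2 (95% exact interval 1.91 to 3.5, counting error only), 5.17-fold in group 3 (4.30 to 6.26), 14.3-fold in group 4 (9.28 to 23.2) and 21.7-fold in group 5 (12.5 to 41.3), as summed CPM. KO 1 exceeded KO 2 by 2.12-fold (1.24 to 3.79) in group 2 and 9.90-fold (2.49 to 85.9) in group 5, the latter on 27 and 2 reads. Control 1 and control 2 stood at a ratio of 0.911 (0.749 to 1.11) in group 2 and 0.461 (0.395 to 0.536) in group 5. The TKO ratio was 1.16 (0.881 to 1.53) in group 2, 1.31 (1.13 to 1.52) in group 3, 1.64 (1.23 to 2.19) in group 4 and 0.979 (0.731 to 1.31) in group 5. DKO had 0.655 (0.456 to 0.939) in group 2, 0.403 in groups 3 and 4, and 1.26 (0.596 to 2.79) in group 5. In each of groups 2 to 5 the widest gap within a genotype was that of QKO, although in groups 2 and 5 its interval overlapped that of KO.

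**Figure D4:**
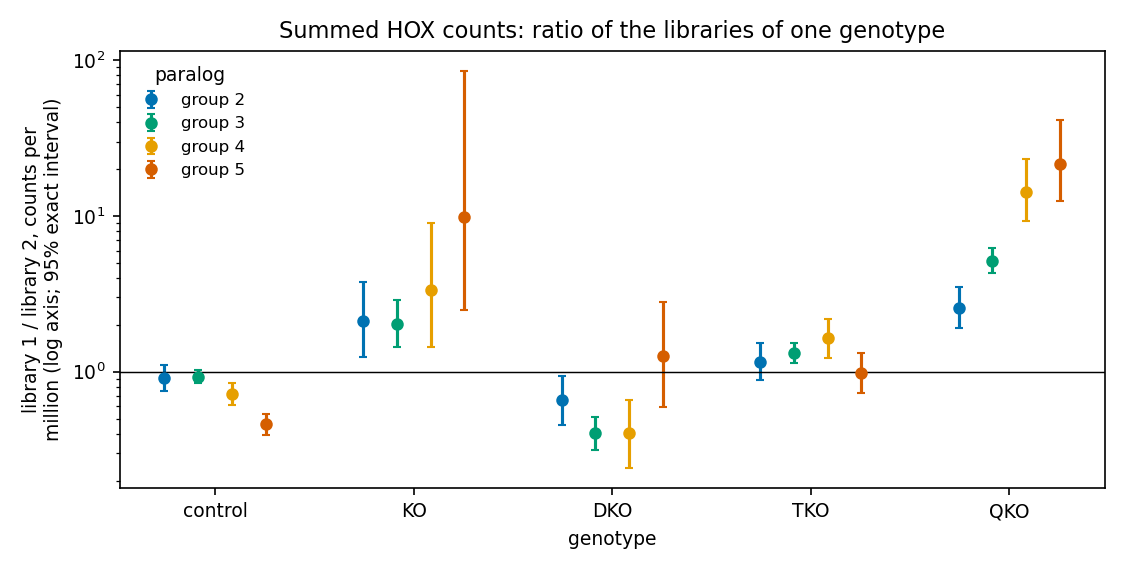
Ratio of library 1 to library 2 of each genotype (log axis), for CPM summed over the HOX genes of a paralog group, with 95% exact intervals for counting error. The QKO ratios climb from 2.57 in group 2 to 21.7 in group 5, and those of TKO lie between 0.979 and 1.64.

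Of the 130 reads in groups 6 to 9, control 2 held 69 and no other library more than 12. Hoxb8 had 36 counts there, 1 in QKO 1 and 0 in the other 8 libraries. Hoxa6 had 10 in control 2 and at most 1 elsewhere, and Hoxb7 had 6 there and 0 elsewhere. Hoxb6 had 12 in control 2, 6 in QKO 1 and at most 2 elsewhere, and Hoxc6 had 3 and 1 in those libraries and 0 in the others. Of the 117 reads in groups 6 to 8, these 5 genes gave all but those of Hoxc8 and Hoxd8. Hoxd8 had 1 to 7 counts in every library, the most in DKO 2, and Hoxb13 had 6 in KO 2 and at most 3 elsewhere, so neither followed the other genes. Of the early genes, Hoxd1 had 0 to 5 counts and Hoxb1 0 to 3.

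Other regional genes were measured beside the HOX genes, from lists chosen for the region they mark. The 11 hindbrain neuron genes, none a HOX gene and none at 0, summed to 58.9 to 66.2 CPM in controls, 40.6 to 43.4 in KO, 41.8 to 44.3 in DKO, 45.6 to 50.2 in TKO and 38.8 to 52.4 in QKO. In KO vs control 2 of the 11 fell and 0 rose, with a median of -0.79. Among all genes 0.23% were called lower. An unadjusted p under 0.05 was found for 9 of the 11, beside 10.4% of all genes. Lbx1, a factor of dorsal interneurons of hindbrain and spinal cord, was 1 of the 2 called. It fell by 1.83 ± 0.36 on the log2 scale. Slc6a5, the transporter of glycinergic neurons, was at -2.41 ± 0.59 and did not pass (edgeR adjusted p = 0.117). Genes of serotonin neurons were closer to control, with Slc6a4 at -0.26 ± 0.12, Tph2 at -0.33 ± 0.11 and Fev at 0.05 ± 0.24. The order of the libraries on this list was near that on the HOX genes: relative to the control mean, mean log2 CPM was -0.85 and -1.10 in KO, -0.81 and -0.71 in DKO, -0.34 and -0.62 in TKO, and -0.32 and -0.90 in QKO. The HOX mean over the 13 genes was -2.87 and -3.86, -2.85 and -2.17, -0.77 and -1.12, and -0.16 and -2.83.

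With the hindbrain list's mean as a covariate, 0 HOX genes were called in KO vs control and the median went from -3.44 to -0.29. Calls were lost over all genes too: in either direction that fit called 10 in KO vs control, against 137 in the main fit. The same covariate took the median of DKO vs control to -0.0065, and it turned that of TKO vs control to 0.65 and that of QKO vs control to 1.08. The list and the HOX genes thus moved together over these libraries, and the fit had fewer degrees of freedom and a covariate that differed between the groups.

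Lists of the cerebellum and rhombic lip, midbrain and forebrain differed less from control than the hindbrain list. Of 8 cerebellar and rhombic lip genes tested, Atoh1 fell in KO (-1.29 ± 0.21, edgeR adjusted p = 0.0227). On this list 3 of the 8 had an unadjusted p under 0.05, and the median was -0.07. Of 7 midbrain and 12 forebrain genes 0 were called in KO vs control by edgeR, with 2 of each at an unadjusted p under 0.05 and medians of -0.16 and 0.03. Forebrain genes summed to 1150 to 1180 CPM in controls and 1110 to 1150 in KO. Motor neuron genes had a median of -0.47, with 0 of 7 called (2 at an unadjusted p under 0.05). Relative to the control mean, their mean log2 CPM was -0.67 and -0.87 in KO, beside -0.85 and -1.10 for the hindbrain list. The most abundant were Isl1 (-0.05 ± 0.09), Slc5a7 (-0.28 ± 0.15) and Prph, a filament of peripheral and motor neurons, at -1.69 ± 0.41. Mnx1, a defining gene of spinal motor neurons, never exceeded 1 count.

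Tissues that can adhere to a brain were looked at too, because HOX genes are also active in the trunk. Of 6 skeletal muscle, 5 cartilage and 7 meningeal genes tested, edgeR called 0 in KO vs control, with 0, 2 and 2 at an unadjusted p under 0.05. Muscle genes summed to 7.7 to 8.0 CPM in controls and 7.35 to 7.53 in KO. Cartilage genes summed to 26.0 to 30.7 in controls and to 17.2 and 62.0 in KO, the higher in KO 2, the library lowest in HOX reads. Meningeal genes summed to 482 to 523 in controls and 425 to 430 in KO. The part of any of these tissues in the HOX values was not tested.

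**Figure D5:**
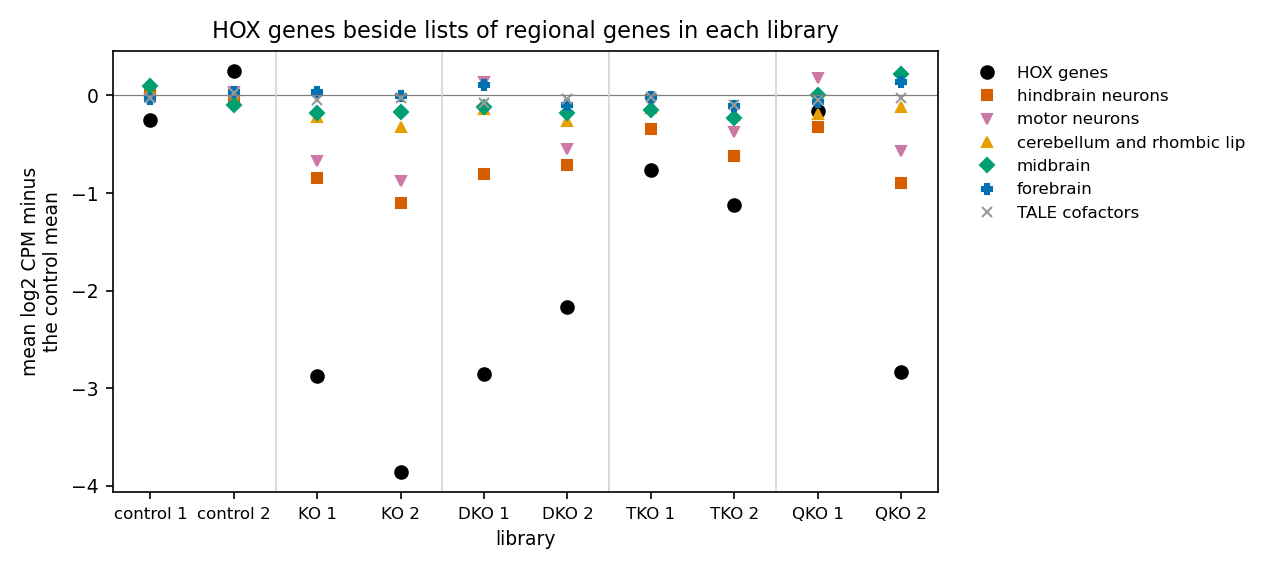
Mean log2 CPM of the 13 tested HOX genes and of 6 gene lists in each library, minus the mean of the controls. HOX genes reach -3.86 in KO 2, hindbrain neuron genes -1.10, and forebrain genes and TALE cofactors stay near 0.

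Partners and regulators of HOX genes were nearer to control. Of the 9 TALE cofactor genes, 0 were called in KO vs control by edgeR (2 at an unadjusted p under 0.05), with a median of -0.04. Meis2 was at -0.13 ± 0.07 and Pbx3 at -0.19 ± 0.06. These genes are expressed throughout the brain. Of the 23 Polycomb and trithorax genes, 0 were called (4 at an unadjusted p under 0.05), with a median of 0.02, Ezh2, the histone H3 methyltransferase, at 0.08 ± 0.08 and Kmt2a at 0.32 ± 0.18. Of 12 tested genes of axial patterning and retinoic acid signalling, 0 were called and 5 had an unadjusted p under 0.05. Aldh1a1, which makes retinoic acid, was at -0.82 ± 0.17 (edgeR adjusted p = 0.0519), and Cyp26b1, which degrades it, at 0.28 ± 0.11. Cdx1, Cdx2 and Cdx4, which set HOX genes in the tail bud, never exceeded 2 counts.

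Most genes that flank the clusters were at control level or close to it in KO, and Evx1 was lower without a call. Of 10 neighbours 0 were called in KO vs control (1 at an unadjusted p under 0.05), and their median was -0.02. Evx1 and Evx2, homeobox genes beside Hoxa13 and Hoxd13, had 16 to 60 and 24 to 50 counts per library, where the posterior HOX genes next to them had 0 to 2. Evx1 was at -0.82 ± 0.33 in KO vs control and Evx2 at -0.07 ± 0.28. The KO libraries differed in Evx1, at 1.03 CPM in KO 1 and 0.40 in KO 2, beside 1.38 and 1.23 in controls. Skap2 and Hibadh, at the ends of the Hoxa region, were at -0.10 ± 0.11 and -0.07 ± 0.07, and Mtx2 and Lnpk, at those of the Hoxd region, at -0.08 ± 0.07 and 0.06 ± 0.09.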

How the data were processed

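RNA was sequenced from 10 libraries of mouse brain (E18.5), 2 for each of 5 genotypes taken from the labels. Reads were aligned with GSNAP to build NCBIM37, per the submitters' processing notes. The deposited count holds the uniquely aligned reads of each gene model, per the file headers. The authors also give nRPKM, that is RPKM after size-factor adjustment, per the file headers. The sources used here do not name the annotation release, gene lengths or strand handling. RefSeq for GRCm38.p6, used for names and start-site windows only, named 24998 of 28059 identifiers (89.1%), which held 95.8% of the counts. Coordinates are those of GRCm38.p6, not of the authors' build.

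The quasi-likelihood test of edgeR 4.0.16 (R 4.3.3) was run on the counts, with a fit of 5 group means over all 10 libraries, with TMM factors and Benjamini-Hochberg adjustment over the 18671 genes that passed filterByExpr. Calls were made below an adjusted p of 0.05. SEs derive from the F statistic, and the fit had 5 residual degrees of freedom. Depth was 31996944 to 54594523 counts per library, and the highest HOX count in a library was 385, for Hoxb3. Libraries of a group differed by a chi-square of 7.51 to 19.5 per degree of freedom over genes with at least 20 counts, so none was a copy of another. DESeq2 1.42.0 and the other alternatives are described in the closing section. The scripts were tested on simulated data.

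Values are given for the HOX genes that passed the filter, for called genes and up to 3 others of each list by abundance, except for a few items that are not reported here. Other list genes named, such as Slc6a5, Fev, Evx1 and Kmt2a, were picked after their values were seen. The members and lists were chosen with earlier results of these data known. The 10 genes most like the HOX genes were ranked by Pearson r.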

Additional observations from a re-analysis of the deposited data

How the results depend on the processing

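No paired analysis was possible because the labels carry no replicate numbers. RLE factors changed neither a HOX call count nor a median by more than the spread. DESeq2 called 3 HOX genes in DKO vs control in place of 0, and 137 of all genes in place of 79. Without the low-count filter 12 were called in KO vs control and 10 in DKO vs control. Over all genes that fit called 300 and 225, against 137 and 79 in the main fit. A fit of the compared groups alone called 12 in KO vs control, 7 in DKO vs control, 6 in TKO vs control and 2 in TKO vs DKO, where the spread of QKO does not enter. Over all genes it called 691, 93, 511 and 64 in these comparisons, against 137, 79, 28 and 17 in the main fit. With the Xist covariate 3 were called in KO vs control, and the median of TKO vs DKO was 1.17. Over all genes that fit called 60 in KO vs control, against 137 in the main fit. Without the libraries with Xist above 100 CPM, control and DKO were left with 1 library each. Medians were then -2.04 in DKO vs control, 1.50 in DKO vs KO and 1.01 in TKO vs DKO.

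With the hindbrain neuron list as a covariate 0 were called in KO vs control. Over all genes that fit called 10 there, against 137 in the main fit. Medians were then -0.29 in KO vs control, -0.0065 in DKO vs control, 0.65 in TKO vs control, 1.08 in QKO vs control, 0.21 in DKO vs KO and 0.61 in TKO vs DKO. Under it single genes changed sign: in KO vs control Hoxb5 (0.62), Hoxc4 (1.93), Hoxd3 (0.43) and Hoxd4 (1.26), and in DKO vs control Hoxa2 (0.43), Hoxb3 (0.53) and Hoxd3 (0.55). In TKO vs control Hoxa2 (0.23), Hoxa5 (0.060), Hoxb3 (0.79) and Hoxd3 (1.06) did so, and in QKO vs control Hoxa2 (0.59), Hoxa5 (0.015), Hoxb3 (0.80) and Hoxd3 (1.31). None of these passed. The cause was not tested.

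Leaving out 1 library gave 0 to 1 calls in KO vs control and 0 to 5 in QKO vs control. Medians ranged from -4.51 to -3.15 in KO vs control, -3.37 to -1.86 in DKO vs control, -1.25 to -0.77 in TKO vs control, -3.20 to -0.19 in QKO vs control, 0.49 to 1.50 in DKO vs KO, 1.01 to 2.30 in TKO vs DKO, and -2.04 to 0.62 in QKO vs TKO. Hoxd3 in QKO vs control ranged from -2.71 without QKO 1 to 0.13 without QKO 2. A lone library was assumed to vary like the other groups. Few reads limit Hoxb4, Hoxd4, Hoxc5 and every gene of group 6 and above. In KO and DKO they also limit Hoxa4, Hoxa5 and Hoxb5, which had 0 to 16 counts a library.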

Other observations

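Genes outside the lists followed the HOX genes over the 10 libraries. The 10 named genes whose log2 CPM had the highest Pearson r with the mean of the 13 tested HOX genes included Vamp1, Syt2, Nefh, Chodl, Slc6a5, Tbx20, Lamp5, Pax8 and Lbx1, with r from 0.95 to 0.982. Spearman's rho was 0.855 to 0.988, and r of the deviations from the group means was 0.816 to 0.987. The HOX mean had an SD of 1.89 within QKO and 0.252 to 0.699 within the other groups, so QKO weighs most in the latter r. The correlations were used to choose the genes and describe them, the libraries fall into groups, and no test was made. Slc6a5 and Lbx1 are also on the hindbrain list.

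Vamp1, Syt2 and Nefh are known from neurons with fast-conducting axons. Vamp1, a synaptic vesicle protein, was at 22.5 and 23.9 CPM in controls, 16.2 and 13 in KO, 14.3 and 17.4 in DKO, 21.3 and 20.4 in TKO, and 22.9 and 14.2 in QKO. Syt2, a calcium sensor of vesicle release, was at 10.2 and 11.0, 6.52 and 5.45, 5.44 and 7.44, 9.17 and 8.20, and 11.8 and 6.39 in the same order. In both genes QKO 1 was with the controls and QKO 2 with KO and DKO. Both were chosen for their likeness to the HOX genes over these libraries, so this is no separate observation. Neither was called in KO vs control (edgeR adjusted p = 0.189 for Vamp1 and 0.207 for Syt2). Nefh, the heavy neurofilament, was at 27.8 and 28.3 CPM in controls and 16.4 and 13.6 in KO (edgeR adjusted p = 0.0112). Tbx20, a factor of cranial motor neurons, was at 0.784 and 1.12 CPM in controls and 0.128 and 0.075 in KO. Its KO 2 value was at the floor of 3 counts, and it did not pass (edgeR adjusted p = 0.0511).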
